A study of Mus musculus with 12 samples.

Results

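The regions described here are the accessible regions around mouse olfactory receptor genes. A region was a member when it overlapped, by at least 1 bp, an autosomal gene whose symbol starts with Olfr in GENCODE M21 or the 20 kb to either side of such a gene. The rule took 1227 of the 170548 regions in the merged list, or 0.737% of its 166526 autosomal regions, and no measured value entered it. The series holds 12 ATAC-seq libraries of mouse embryonic stem (ES) cells, an assay in which a transposase inserts sequencing adapters into open DNA. ZHBTc4 cells, in which a doxycycline (dox)-repressible promoter drives the only source of OCT4, were left untreated or given 1 µg/ml dox for 24 hr, with 2 libraries per condition. 2TS22C cells, in which SOX2 is controlled in the same manner, were left untreated or given 1 µg/ml dox for 26 or 40 hr, with 2 libraries for each of the 4 combinations. All cells of these 12 libraries were grown in serum medium with LIF and inhibitors of GSK3 and MEK. Each factor was depleted in a single engineered line. The list merges the peaks of ZHBTc4 and 2TS22C libraries and holds positions only. Each statement below therefore concerns whether a region was listed in any condition. Neither the signal of a library nor an effect of dox can be read from the list. The paper also used published ZHBTc4 libraries grown in serum and LIF, and whether their peaks entered the list is not stated. Depth was not available, and absence from the list means that no peak was listed.

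Olfactory receptors are G-protein-coupled receptors that detect odorants, and their genes form the largest gene family of the mouse, arranged in tandem clusters. A mature olfactory sensory neuron transcribes a single allele of a single receptor gene, while the other receptor genes are packed in heterochromatin. Choice of the receptor involves enhancers inside the clusters that bind LHX2, EBF proteins and LDB1 in those neurons. ES cells do not use these receptors for smell, and no marker of olfactory neurons can be checked in a list of positions.

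The autosomes carried 1399 Olfr genes, of which 1128 were protein-coding and 271 were annotated as pseudogenes of some kind, on 18 chromosomes. Chromosome 2 held 370, chromosome 7 held 293, chromosome 9 held 173 and chromosome 11 held 104. Together with their flanks they formed 162 stretches and 29.6 Mb of assembled sequence, or 1.23% of the autosomes. A further 8 Olfr genes lay on the X chromosome, where 2 regions were listed around them.

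Sequences of 9 members are shown because they carry the contrasts described below, namely CpG-rich coding exons, repeats shared between clusters, and matches to transcription factor motifs. Each is the central 200 bases of a region in mm10, 5′ to 3′ on the plus strand, read from the RefSeq copy of that assembly. In the sequences of families 1 to 3, capitals mark bases covered by a 24-mer that at least 10 other members also held. In the others, capitals mark exact matches, on either strand, to the POU octamer ATGCAAAT, the SOX element ACAAAG, the EBF site TCCCNNGGG or the LHX homeodomain element TAATTA. Olfr94, Olfr545 and Olfr52 are the 3 protein-coding Olfr genes with the widest region within 1 kb of their own transcription start site (TSS) and of no other gene.
Olfr94, chr17:37197206-37197405: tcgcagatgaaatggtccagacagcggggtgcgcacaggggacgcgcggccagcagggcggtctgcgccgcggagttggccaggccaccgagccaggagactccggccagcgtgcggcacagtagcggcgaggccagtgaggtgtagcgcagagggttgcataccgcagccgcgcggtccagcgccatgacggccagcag
Olfr545, chr7:102494198-102494397: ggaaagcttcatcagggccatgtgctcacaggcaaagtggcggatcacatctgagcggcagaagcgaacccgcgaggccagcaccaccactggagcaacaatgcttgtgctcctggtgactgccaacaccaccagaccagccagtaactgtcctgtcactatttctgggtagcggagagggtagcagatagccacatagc
Olfr52, chr2:86182671-86182870: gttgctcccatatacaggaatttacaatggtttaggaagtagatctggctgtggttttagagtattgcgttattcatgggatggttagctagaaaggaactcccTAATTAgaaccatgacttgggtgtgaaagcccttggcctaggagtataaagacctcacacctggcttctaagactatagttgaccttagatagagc
Middle of the largest cluster, chr2:87861597-87861796: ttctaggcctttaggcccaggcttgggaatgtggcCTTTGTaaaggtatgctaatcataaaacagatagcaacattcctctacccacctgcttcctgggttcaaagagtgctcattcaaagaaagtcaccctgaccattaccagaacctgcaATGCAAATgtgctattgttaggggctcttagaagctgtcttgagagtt
Intron of Olfr1034, chr2:86050909-86051108: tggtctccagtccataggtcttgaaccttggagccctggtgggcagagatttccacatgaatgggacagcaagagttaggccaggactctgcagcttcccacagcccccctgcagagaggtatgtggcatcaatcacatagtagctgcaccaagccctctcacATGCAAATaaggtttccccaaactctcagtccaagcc
EBF site near Olfr1095, chr2:86842962-86843161: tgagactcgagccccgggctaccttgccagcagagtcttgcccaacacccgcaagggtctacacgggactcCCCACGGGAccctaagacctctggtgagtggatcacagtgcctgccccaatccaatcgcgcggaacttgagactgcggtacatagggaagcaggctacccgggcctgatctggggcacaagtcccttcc
Family 1, chr3:6768228-6768427: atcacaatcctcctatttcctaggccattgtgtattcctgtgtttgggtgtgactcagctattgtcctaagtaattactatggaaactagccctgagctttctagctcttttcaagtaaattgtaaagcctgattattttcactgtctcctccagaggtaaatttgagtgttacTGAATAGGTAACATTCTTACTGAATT
Family 2 near Olfr478, chr7:108027070-108027269: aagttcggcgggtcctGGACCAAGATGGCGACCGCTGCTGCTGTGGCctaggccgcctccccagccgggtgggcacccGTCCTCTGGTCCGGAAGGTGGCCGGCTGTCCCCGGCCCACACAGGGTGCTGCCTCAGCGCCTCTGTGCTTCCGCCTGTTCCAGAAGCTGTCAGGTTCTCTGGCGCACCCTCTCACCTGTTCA
Family 3, chr2:90272785-90272984: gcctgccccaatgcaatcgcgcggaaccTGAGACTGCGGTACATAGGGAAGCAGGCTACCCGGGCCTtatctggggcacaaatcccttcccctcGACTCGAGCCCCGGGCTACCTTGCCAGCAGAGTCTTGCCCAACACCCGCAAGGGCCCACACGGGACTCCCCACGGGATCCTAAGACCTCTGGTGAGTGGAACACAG

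Accessible regions were sparse around Olfr genes. The surroundings held 41.3 regions per assembled Mb (95% Poisson interval 39.1 to 43.7), against 89.2 (88.7 to 89.8) in the equally wide flanks and bodies of the other 19679 autosomal protein-coding genes. The ratio was 0.463 (95% exact conditional interval 0.437 to 0.490). Sequence more than 20 kb from any annotated gene held 39.3 regions per Mb, and the ratio of Olfr surroundings to it was 1.05 (0.991 to 1.11), an interval that includes 1. Intervals on densities treat regions as independent and cover counting error only.

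The comparison with other clustered families went both ways. Vomeronasal receptor genes (Vmn1r and Vmn2r), which encode pheromone receptors, had 30.9 regions per Mb, and Olfr surroundings exceeded them 1.34-fold (1.20 to 1.49). Per Mb of single-copy sequence, judged by 75-mers sampled every 200 bp, the densities were 46.7 around Olfr and 43.9 around vomeronasal genes, where only 70.5% of 75-mers were single-copy against 88.4% around Olfr genes. The clustered protocadherin genes, which encode neuronal adhesion molecules, had 144 regions per Mb, and the ratio of Olfr surroundings to them was 0.288 (0.238 to 0.351).

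The low density was found across the genome. All 14 chromosomes with at least 10 Olfr genes had a ratio below 1 with its interval below 1, from 0.261 (0.186 to 0.356) on chromosome 19 to 0.826 (0.685 to 0.988) on chromosome 10. Of the 4 others, chromosome 5, with 3 Olfr genes, was the only chromosome of the 18 with a ratio above 1, at 1.45 (0.871 to 2.26).

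**Figure D1:**
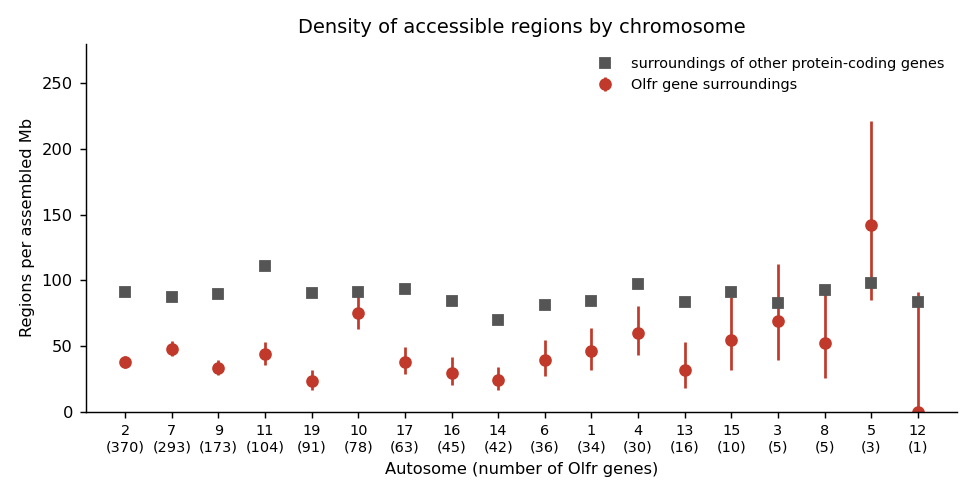
Regions per assembled Mb (y axis) on each of the 18 autosomes with Olfr genes (x axis, ordered by the number of Olfr genes, given in parentheses), for Olfr gene surroundings (red circles, bars are 95% Poisson intervals) and the surroundings of other protein-coding genes (grey squares). The red points lie below the grey on 17 of the 18 chromosomes, and chromosome 10 comes nearest among the chromosomes with at least 10 Olfr genes.

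Olfr surroundings also differed from other gene surroundings in base composition. Their GC content was 38.9% against 43.3%, they held 5.71 against 9.94 CpG per kb, and 46.6% against 29.4% of their bases were soft-masked, that is, marked as repeats in the assembly. In a Poisson fit over 23987 autosomal windows of 100 kb, with standard errors clustered by chromosome, a window fully inside Olfr surroundings had 0.586 times the rate of a window outside them (95% interval 0.501 to 0.687). With GC content, soft-masked share and the number of TSSs, those of Olfr genes included, as linear covariates, the rate ratio was 0.795 (0.673 to 0.940). With GC content only, the rate ratio was 0.932 (0.802 to 1.08), an interval that includes 1. It depended on the form of the covariates, since a squared GC term and the logarithm of the TSSs of other genes, a form chosen after seeing the data, gave 0.970 (0.784 to 1.20), with an interval that includes 1. Without regions at least 50% soft-masked, the linear form gave 0.624 (0.535 to 0.728).

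The lower density was found outside repeats when the regions were split at 50% soft-masked bases. Regions under that share numbered 660 by their centre, or 41.8 per Mb of unmasked sequence, against 110.9 around other genes, a ratio of 0.377 (0.348 to 0.407). Regions at or above it numbered 562, or 40.8 per Mb of masked sequence, against 37.3 around other genes, a ratio of 1.095 (1.005 to 1.191). Repeats therefore took 45.8% of all members against 16.3% of other autosomal regions. Among distal regions, more than 1 kb from any TSS, the shares were 54.5% of 986 members and 18.8% of the others.

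**Figure D2:**
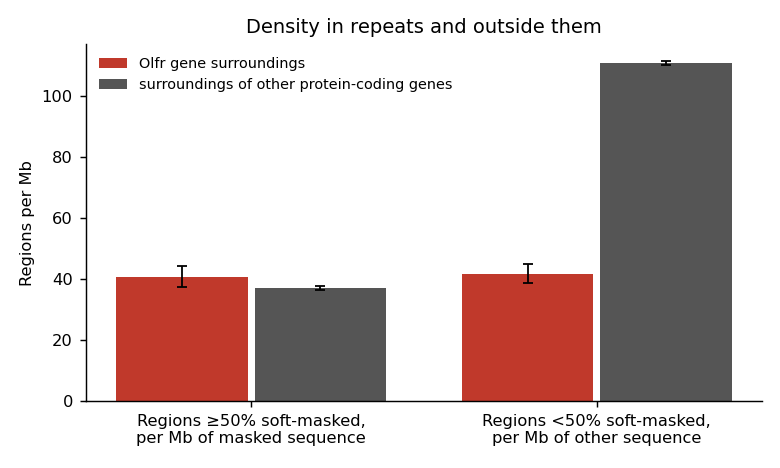
Regions per Mb (y axis) in Olfr gene surroundings (red) and the surroundings of other protein-coding genes (grey), for regions at least 50% soft-masked per Mb of masked sequence and for the remaining regions per Mb of unmasked sequence; bars start at 0 and error bars are 95% Poisson intervals. The masked densities are 40.8 and 37.3, and the unmasked ones 41.8 and 110.9.

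Many of the masked members resembled each other. When members sharing at least 40 distinct 24-mers were joined, 310 of 1227 (25.3%) fell into 44 families of related sequence. Only members were joined, so there is no matching share for regions elsewhere. Of the 562 masked members 275 (48.9%) belonged to a family, against 35 of 665 (5.26%) of the others. The largest families had 65 members on 11 chromosomes, 63 on 10 and 41 on 9, with median soft-masked shares of 76.7%, 93.1% and 98.5%. Joining was by chains, and the member with the most direct partners had 11 in family 1, 39 in family 2 and 32 in family 3. None of the regions in these 3 families overlapped Olfr coding sequence. Of the 82 regions that did overlap Olfr coding sequence, 9 were in a family.

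To set these families against the rest of the genome, copies of the 3 largest were sought on each chromosome with 24-mers taken only from members on other chromosomes. Family 2, whose sequence near Olfr478 is GC-rich, had 181 copies in Olfr surroundings, or 6.12 per Mb, against 1.88 per Mb around other protein-coding genes and 4.34 per Mb in the rest of the autosomes. A listed region overlapped 62 of the 181 copies (34.3%), against 37.9% of 2481 around other genes and 36.8% of 4545 in the rest. Family 1 had 11.5 copies per Mb in Olfr surroundings, 3.97 around other genes and 8.34 in the rest. It was listed at 26.7% of 341 copies in Olfr surroundings, at 18.3% of 5237 around other genes and at 17.5% of 8733 in the rest. Family 3 had 13.8 copies per Mb in Olfr surroundings, 7.86 around other genes and 12.8 in the rest. It was listed at 10.8% of 409 copies, against 5.39% of 10362 around other genes and 8.40% of 13388 in the rest. These shares are a description with no test, because the families were the 3 with most listed regions in Olfr surroundings, and that choice favours a high share there. The copies were found with sequence from listed Olfr members, and how the alignment placed reads from repeated sequence was not tested.

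Most Olfr promoters carried no region. Among protein-coding Olfr genes, 120 of 1128 (10.6%, 8.97 to 12.6) had a region within 1 kb of an annotated TSS, against 79.9% of the other 19679 autosomal protein-coding genes, a difference of -69.3 points (-71.0 to -67.2). A TSS was itself covered in 18 of 1128 (1.596%, 1.01 to 2.51), against 74.2% of the others. Counted over 2919 distinct Olfr TSSs, 5.72% lay within 1 kb of a region, while 9.34% of all bases in Olfr surroundings did. For comparison, 66.6% of TSSs and 19.996% of the bases in the surroundings of other protein-coding genes lay within that distance. Of Olfr pseudogenes 26 of 271 (9.59%) had a region, and the difference of protein-coding from pseudogenes was 1.04 points (-3.37 to 4.58). Vomeronasal receptor genes had 5.17% and clustered protocadherin genes 84.2%.

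The profile around the 5′ ends of genes had no peak at the Olfr start. Coverage there was 0.975% of protein-coding Olfr genes, below the mean of 1.73% at 5 to 10 kb, and fell to 0.355% at its lowest point. Of other protein-coding genes 66.4% were covered at the 5′ end, against a mean of 5.86% at 5 to 10 kb.

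**Figure D3:**
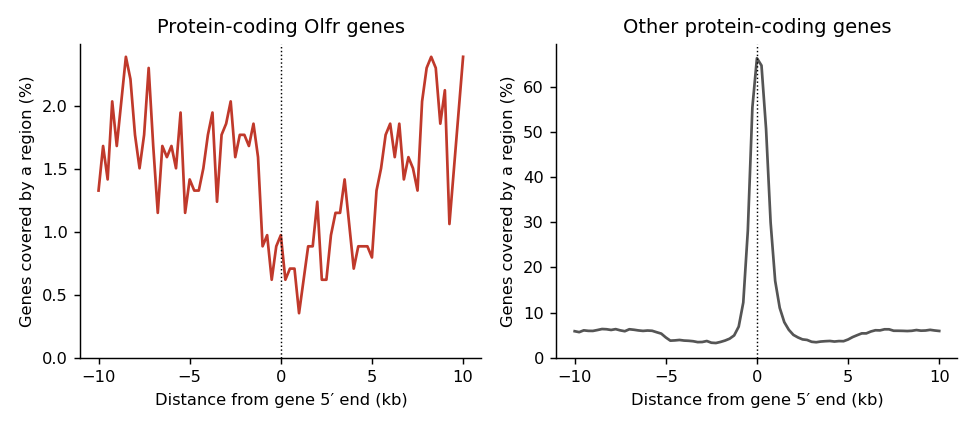
Percent of protein-coding genes covered by a region (y axes, on different scales) at each distance from the gene's 5′ end (x axes, kb), for Olfr genes (left, red) and other genes (right, grey). The Olfr curve stays at or below 2.39% and is low around the 5′ end, whereas other genes peak at 66.4% there.

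Promoters were also compared at similar CpG content. The median observed-to-expected CpG ratio around the 5′ end was 0.106 for protein-coding Olfr genes and 0.599 for the others. Among genes with a ratio under 0.2, a region lay within 1 kb of the 5′ end of 45 of 1008 Olfr genes (4.46%, 3.35 to 5.92) and of 18.7% (17.5 to 20.01) of the other genes. Between 0.2 and 0.4 the shares were 7 of 116 (6.03%, 2.95 to 11.9) and 51.4% (49.7 to 53.1). Only 4 Olfr genes had a higher ratio.

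The regions at Olfr promoters were narrow. Over the 120 genes, the widest region within 1 kb of a TSS ranged from 145 to 1456 bp with a median of 264 bp, and in 117 it lay away from the TSSs of other genes. Olfr94 (ENSMUSG00000043827.9, chr17:37196425-37200994) had the widest, 1456 bp, which covered a TSS and lay in its coding exon. That region had a GC content of 58.2% and 62.5 CpG per kb, the CpG-rich letters shown above. Olfr545 (chr7:102491466-102499573) followed with 1191 bp in its coding exon at 56.2% GC, also over a TSS. Olfr52 had 1099 bp in an intron, 113 bp from a TSS, and 71.4% of it was soft-masked. The next in width were Olfr982 with 1015 bp, Olfr1431 with 989 bp, Olfr1344 with 949 bp and Olfr56 with 894 bp. The region of Olfr56 also lay near the TSS of another gene, inside a gene model that runs from 48978889 to 49135387 on chromosome 11. Olfr557 with 874 bp, Olfr279 with 837 bp and Olfr556 with 811 bp completed the 10 widest, and the regions of Olfr557 and Olfr556 covered a TSS.

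None of 9 well-studied receptors had such a region, a count close to what the 10.6% of all protein-coding Olfr genes gives for so few. Olfr2, the I7 receptor for octanal, came closest, with a 166 bp region 1537 bp from a TSS. For Olfr544 the distance was 3032 bp and for Olfr151, also called M71 and annotated as a polymorphic pseudogene, it was 6567 bp. Olfr78, which is also expressed in the carotid body, was 11227 bp from a region, Olfr16 13644 bp, Olfr17, also called P2, 18712 bp, Olfr160 21421 bp, Olfr73 23694 bp and Olfr1507 33069 bp.

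The genes that serve receptors mostly had a promoter region, as did most other protein-coding genes. Of 14 genes for odorant signal transduction and receptor trafficking 11 had a region within 1 kb of a TSS. The 3 without were Cnga4, a subunit of the cyclic-nucleotide-gated channel, Rtp1, a chaperone that brings receptors to the membrane, and Stoml3, a stomatin-family protein of olfactory cilia, at 3812, 1922 and 2970 bp. All 14 genes listed as regulators of receptor choice had one, among them Lhx2, Ldb1 and Ebf1 to Ebf4, which encode the factors bound at receptor enhancers, and Lbr, which encodes a nuclear envelope protein. The share among other protein-coding genes was 79.9%, as above.

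Around a typical Olfr gene there was little to find. A gene and its 20 kb flanks held a median of 1 region, against 8 for other protein-coding genes, whose lengths were not matched. No region was listed for 343 of 1399 Olfr genes (24.5%, 22.3 to 26.8), against 3.68% of other protein-coding genes, a difference of 20.8 points (18.6 to 23.2). Without regions at least 50% soft-masked, the share of Olfr genes with none was 47.8%. The most were 11 around Olfr718-ps1 on chromosome 5, annotated as protein-coding despite its name, and 9 each around Olfr543 and Olfr544, neighbours at the edge of a chromosome 7 cluster. Olfr221, Olfr643, Olfr71, Olfr783-ps1, Olfr791 and Olfr826 had 8 each, and the model of Olfr643 is long, from 103998800 to 104137405.

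Density varied with the place inside Olfr surroundings. Intergenic sequence held 855 members by centre, or 42.8 per Mb (39.9 to 45.7). Olfr coding exons held 78, or 69.9 per Mb (55.2 to 87.2), which exceeded the 18.2 (14.3 to 22.8) in Olfr introns and the 27.6 (21.7 to 34.5) in other Olfr exon sequence, with no overlap of the intervals. GC content was 44.7% in the coding exons, 36.3% in the introns and 37.0% in the other exon sequence, and its part in the difference was not tested. In all, 77 protein-coding Olfr genes (6.83%) had coding sequence overlapped by a region. Exons of other genes, at 153 per Mb (117 to 195), were the densest.

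Members had a median width of 326 bp (quartiles 203 and 588.5, range 119 to 2549), and the median of other autosomal regions was 379 bp. Of the members 241 (19.6%, 17.5 to 21.96) were within 1 kb of a TSS, against 17.2% of other autosomal regions. Of these, 140 were near an Olfr TSS only, 99 near a TSS of another gene only and 2 near both. The 140 had a median width of 254 bp and a median GC content of 46.3%, while the 101 near a TSS of another gene had 627 bp and 52.4%. The widest member, 2549 bp at chr13:21715492-21718040, covered exons of the histone genes Hist1h2bl, Hist1h2ai and Hist1h3h, 8658 bp from Olfr1359. The widest distal members inside clusters were 2235 bp near Olfr1127-ps1 on chromosome 2 and 2193 bp near Olfr478 on chromosome 7, the latter 93.1% soft-masked and the source of the family 2 sequence above. The other members among the 5 widest were in introns of Tpm4 (2039 bp), which encodes a tropomyosin, and of Il3ra and Gm48860 (1904 bp), 16668 and 15003 bp from the nearest Olfr gene.

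Olfr genes were joined into a cluster where gaps were at most 200 kb, which gave 35 clusters of at least 5 genes with 1337 genes (95.6%), and 38 smaller groups with 62 genes. Cluster interiors were the Olfr surroundings between the outermost Olfr genes, without sequence more than 20 kb from any Olfr gene. They held 982 regions or 38.1 per Mb (35.7 to 40.5), and the outer 20 kb edges held 105 or 75 per Mb (61.3 to 90.8). The ratio of interior to edges was 0.508 (0.415 to 0.627). It was 0.324 (0.256 to 0.416) without regions at least 50% soft-masked, and 0.614 (0.490 to 0.780) without regions at the TSS of another gene, of which the edges held more, as 22.1 other protein-coding genes per Mb started there against 1.90 per Mb inside. Smaller groups had 56.8 regions per Mb (47.6 to 67.2), and the ratio of interiors to them was 0.671 (0.560 to 0.809). By counts, 982 of the 1222 regions centred in Olfr surroundings lay inside clusters, and cluster interiors made up 25.8 of the 29.6 assembled Mb.

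The step in density lay at the boundary of the clusters. From outside, it was 91.9 per Mb at 100 to 200 kb from the outermost Olfr gene, 101 at 50 to 100 kb, 88.1 at 20 to 50 kb and 75 in the last 20 kb. Inside, where only Olfr surroundings were counted, it was 40.0 in the outermost 20 kb (30.2 to 51.9). That interval does not overlap that of the adjoining 20 kb outside. Other protein-coding genes that started there numbered 3.57 per Mb inside and 22.1 per Mb outside. Without regions at the TSS of another gene, the densities were 38.6 inside and 58.6 outside, a smaller step. Further in, values were 49.2, 39.7, 43.1 and 38.4 per Mb out to 500 kb, 30.9 (26.5 to 35.8) from 500 to 1500 kb and 53.1 (43.6 to 64.0) beyond that, where only 1 cluster contributed. GC content fell from 43.2% at 100 to 200 kb outside to 40.7% just inside and 36.8% in the innermost part.

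**Figure D4:**
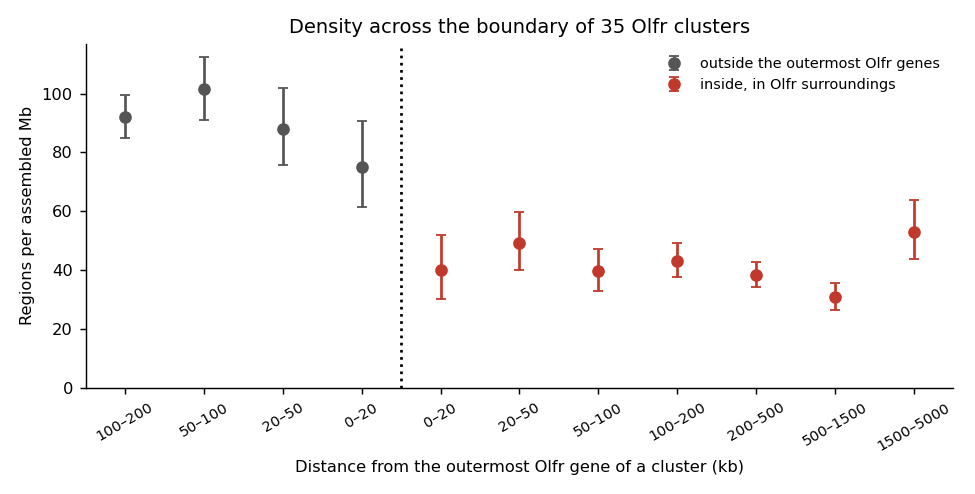
Regions per assembled Mb (y axis) by distance from the outermost Olfr gene of 35 clusters (x axis, kb, not to scale), outside the clusters (grey) and in Olfr surroundings inside them (red), with 95% Poisson intervals. Values outside are 75 to 101 and values inside 30.9 to 53.1, with regions at the TSS of other genes counted, and the dotted line is the outermost Olfr gene.

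The clusters differed among themselves. The interior density ranged from 0 to 124 per Mb with a median of 39.0, and 34 of 35 lay below the 89.2 per Mb of other gene surroundings, 29 with the whole interval below it. Across the 35 clusters, as a description, Spearman's rho with density was -0.07 for the number of genes, 0.31 for GC content, -0.36 for soft-masked share and -0.12 for the single-copy share.

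The largest cluster, Olfr987 to Olfr1274-ps on chromosome 2, held 287 genes over 5073 kb and 189 interior regions, or 39.0 per Mb (33.6 to 44.9). The next, Olfr160 to Olfr986 on chromosome 9, had 123 genes and 35.1 per Mb (28.1 to 43.3), and Olfr543 to Olfr650-ps1 on chromosome 7 had 114 genes and 41.5 (32.2 to 52.6). These 3 overlapped in their intervals. The following pair did not resemble each other. Olfr9 to Olfr827 on chromosome 10, with 67 genes, had the highest density of the 24 clusters with at least 10 genes, 84.7 per Mb (69.1 to 103). Olfr1442 to Olfr1505 on chromosome 19, with 64 genes, had the lowest in its interior, 8.99 per Mb (4.31 to 16.5). That rank holds for interiors only. The 1251 kb between its outermost genes held 22 regions, 10 of them in the interior. For Olfr722 to Olfr749 on chromosome 14, the 851 kb between the outermost genes held 12, 8 of them in the interior.

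GC content was nearly equal in this pair, 37.9% in the chromosome 10 cluster and 37.8% in the chromosome 19 cluster. The soft-masked shares were 48.4% and 50.4%, and the single-copy shares of 75-mers 86.1% and 91.0%. Of the interior regions, 63 of 103 (61.2%) in the chromosome 10 cluster were at least 50% soft-masked, and 9 of 10 in the chromosome 19 cluster. A stretch of 649 kb of the latter held 36 Olfr genes and no region, the longest such stretch of any cluster, and the next longest was 298 kb on chromosome 9 with 9 genes.

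High density was also seen in Olfr467 to Olfr519 on chromosome 7, with 52 genes and 63.6 per Mb (49.3 to 80.8), where 45 of 67 regions (67.2%) were masked, and in Olfr433 to Olfr220 on chromosome 1, with 18 genes and 51.5 per Mb (28.8 to 85.0), where 1 of 15 was. Low density was seen in Olfr722 to Olfr749 on chromosome 14, with 28 genes and 10.4 per Mb (4.48 to 20.4), and in Olfr20 to Olfr412 on chromosome 11, with 44 genes and 21.1 (12.9 to 32.6). A smaller cluster on chromosome 14, Olfr1513 to Olfr1507, had 7 genes over 148 kb and no region, which allows up to 24.9 per Mb.

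**Figure D5:**
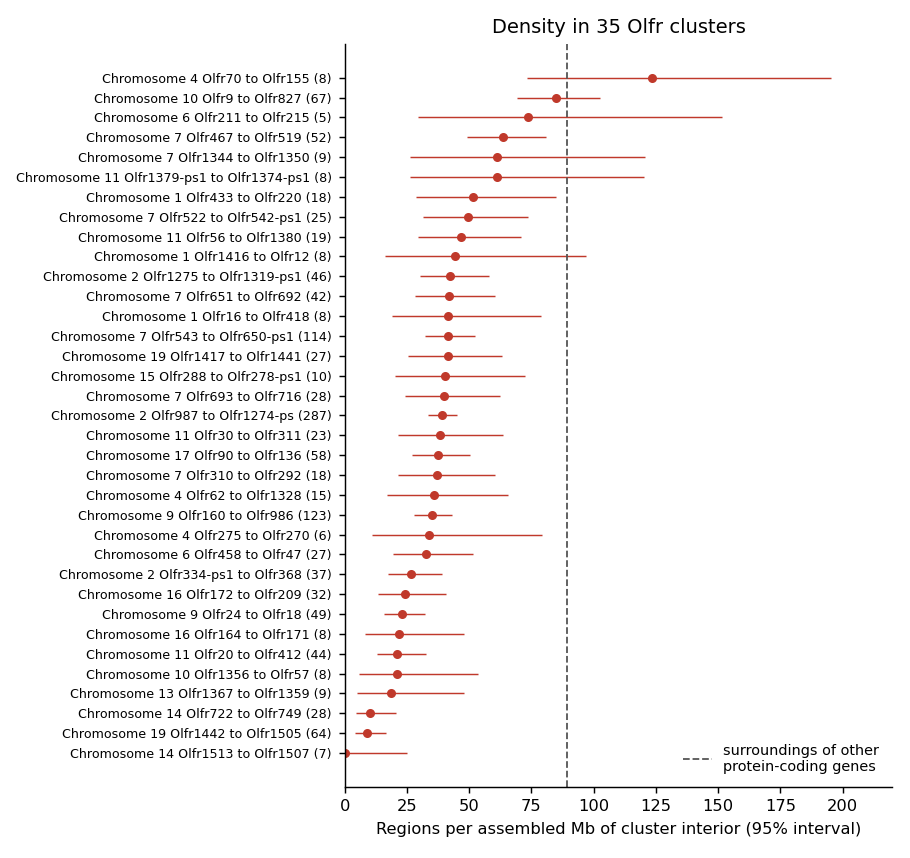
Regions per assembled Mb of cluster interior (x axis, points with 95% Poisson intervals) for 35 Olfr clusters (y axis, chromosome and outermost genes, with the number of genes in parentheses), ordered by density. The dashed line is the 89.2 per Mb of other protein-coding gene surroundings, and only Olfr70 to Olfr155 on chromosome 4, at 124 per Mb, has its point above it.

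Genes of other kinds inside the clusters carried promoter regions more often than the receptors around them. Such genes were counted anywhere between the outermost Olfr genes of a cluster, also more than 20 kb from any Olfr gene. Of 79 protein-coding ones 41 had a region within 1 kb of a TSS (51.9%, 41.1 to 62.6), an interval above that of protein-coding Olfr genes. Among the 79 was OR5BS1P on chromosome 15, whose symbol is that of a receptor but does not start with Olfr. The 10 with the widest region were Lpxn and Zfp91, which share a region of 2173 bp, Patl1, Vwa5a, Osbp, Zfp62, Zkscan3, Tcaf1, H2-M3 and Pgbd1. Lpxn and Zfp91 lie within the chromosome 19 cluster of lowest interior density. In the chromosome 7 cluster from Olfr543 to Olfr650-ps1, 3 of 14 had a region. These were Trim21 (751 bp) and Trim68 (802 bp), which encode ubiquitin ligases, and Ubqln5 (165 bp). The 5 beta-globin genes in this cluster had none, with the nearest region 6674 bp from Hbb-bt, 20403 bp from Hbb-bs, 20230 bp from Hbb-bh2, 17586 bp from Hbb-bh1 and 7534 bp from Hbb-y. Among all 101 other protein-coding genes with a TSS in Olfr surroundings, 61 (60.4%, 50.6 to 69.4) had a region, against 80.003% (79.4 to 80.6) of those elsewhere.

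Exact motif matches were sought in the central 200 bp of each region on both strands. Among distal regions the POU octamer, the element read by OCT4 and its relatives, was found in 36 of 986 members (3.65%) against 2.21% of other autosomal distal regions, a difference of 1.44 points (0.438 to 2.81). The SOX element was found in 17.7% against 20.97% (difference -3.22 points, -5.49 to -0.702). The LHX homeodomain element was in 6.49% against 4.55% (1.94 points, 0.557 to 3.65), and in 8.70% of 133946 region-free windows of the same width in Olfr surroundings. The EBF site was in 4.16% against 3.99% (0.170 points, -0.913 to 1.61), and in 1.24% of the region-free windows. The CTCF core AGGGGGCG was in 0.507%, or 5 of 986 members, against 1.19% (-0.687 points, -0.983 to -0.0103), and in 0.0642% of the region-free windows. In those windows the POU octamer was found in 2.31% and the SOX element in 19.005%. The intervals on these differences treat regions as independent, but many matches lie in repeats that members share, as given below. A match is a description of letters, and binding was not measured here.

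Shared repeats held many of these matches. Over all members the EBF site was found in 44, of which 24 belonged to family 3, where 58.5% of 41 regions had it, as in the sequence near Olfr1095. The POU octamer was found in 39, of which 18 belonged to families 4 and 6, with 8 of 14 and 10 of 12 regions. The region nearest the middle of the largest cluster, 760 bp between Olfr genes and 97.8% soft-masked, was in family 4 and its octamer is shown above. The LHX homeodomain element was found in 71, of which 22 belonged to family 1, where 33.8% of 65 regions had it. With the 310 of 1227 members in a family left out, 19 regions had the octamer, 36 the LHX element and 18 the EBF site. The SOX element was in 175 of these regions and the CTCF core in 7, and the core was found in no family. Over all members the octamer, LHX element and EBF site were in 3.18%, 5.79% and 3.59%. Among other autosomal regions they were in 1.99%, 4.08% and 4.23%. Families were not sought among those other regions, so the differences given above were not tested outside families.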

How the data were processed

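The submitters aligned the ATAC-seq libraries to mm10 with STAR 2.6.1c, removed duplicates with Picard and called peaks with MACS2 2.1.1.20160309. They merged the peaks of the ZHBTc4 and 2TS22C libraries with BEDTools. The deposited list gives positions only (chromosome, start and end), as the authors made it, with no count, score or other value per sample. The study describes removal of peaks over 5 kb, but 16 listed regions exceed that width. The same step of the study removed peaks that overlapped input or blacklisted peaks, so the list, repeat-rich members included, may hold regions that the authors later left out. Whether peaks were called per library, and how reads that align to several places were treated, are not given in the sources used here. No table column of a sample was left unused.

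Genes were taken from GENCODE M21, and sequence, GC content and soft-masking from the RefSeq copy of the assembly. Sex chromosomes were left out of comparisons. Density counted region centres per assembled Mb; promoter shares used all annotated TSSs, and the window fit was a Poisson model in statsmodels (0.14.6) with standard errors clustered by chromosome. Intervals at 95% are Wilson for shares, Newcombe for differences, and exact Poisson or conditional for densities and their ratios, from SciPy (1.17.1) in Python (3.11.15). Copies of a family were runs of at least 40 matching 24-mers with gaps up to 500 bp. Scripts were tested on simulated data. With no value per library, no replicate spread or test between conditions was possible.

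The members and lists were chosen with earlier results of these data known. Genes and regions were named by rule: the 10 protein-coding Olfr genes with the widest region at a TSS, the 5 genes with most regions (9 with ties), 9 receptors known from the literature, the 5 largest clusters and the 3 densest and 3 sparsest with at least 10 genes, the 5 widest regions, and other protein-coding genes inside clusters, not all of which are reported here. The split of regions at 50% soft-masked bases, the sequence families and the chromosome 14 cluster of 7 genes were singled out after their values were seen.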

Additional observations from a re-analysis of the deposited data

How the results depend on the processing

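No paired analysis was possible because merged positions carry nothing measured in a single library to match with replicate numbers. Of 86 alternative settings, 78 kept their result by a rule set for each kind of result. A ratio had to keep its side of 1 and whether its interval included 1. A share or a median had to stay inside its main interval, and a count within a set fold of its value. Some settings could not change a result, such as leaving out a chromosome without clusters for the ratio of interior to edges. The density ratio of Olfr surroundings to other gene surroundings, 0.463, stayed below 1 with its interval under every alternative tried. It was 0.612 with all regions counted per Mb of unmasked sequence, and 0.494 per Mb of single-copy sequence. Without regions at least 50% soft-masked it was 0.285 per Mb of all sequence, masked bases included, and 0.377 per Mb of unmasked sequence. The single-copy setting and the removal of masked regions were chosen after seeing the data. With each chromosome left out the ratio was 0.442 to 0.478. The ratio of interior to edges was 0.474 to 0.553 in the same way, and 0.324 without regions at least 50% soft-masked, again per Mb of all sequence. The share of protein-coding Olfr genes with a region within 1 kb of a TSS moved from 10.6% to 7.62% with regions of at least 200 bp, 1.596% where the region had to cover a TSS and 4.70% with the gene's 5′ end as its only TSS. The share of Olfr genes with no region within 20 kb moved from 24.5% to 33.4% with regions of at least 200 bp and to 47.8% without regions at least 50% soft-masked, the latter chosen after seeing the data. The fitted rate ratio of 0.795 was no longer separated from 1 with windows of 1 Mb (0.872), with GC content only (0.932) or with a squared GC term and the logarithm of the TSSs of other genes (0.970); the cause was not tested. It was 0.586 without covariates and 0.624 without regions at least 50% soft-masked. The promoter-proximal share has no value among distal regions. Depth per library was not known, so narrow or weak regions that a deeper list would hold may be missing.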
